A study of Mus musculus with 25 samples.

Results

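The 10 immediate early genes described here were followed through 25 libraries of bulk mouse retina RNA. They were chosen by symbol: Fos, Fosb, Junb, Egr1, Ier2, Dusp1, Nr4a1, Ccn1, Ccn2 and Btg2. All 10 were among the 18440 genes listed in every deposited table and among the 13117 genes that passed a filter of at least 1 FPKM in at least 5 libraries. FPKM counts fragments scaled to transcript length and to library size, so it is a level per length.

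The retinas came from C57BL/6J mice with the genotype label WT, injected intravitreally at postnatal day 30 in both eyes with 1 µL. The groups hold 5 libraries each: 10 µM tunicamycin, 10 µM Ceapin-A7, 10 µM AA147 and the 2 vehicle sets PBS.2 and PBS. Tunicamycin, which blocks N-glycosylation and so causes ER stress, was the positive control of the series. Ceapin-A7 was used as an inhibitor and AA147 as an activator of ATF6, a membrane-bound sensor of ER stress. For the vehicle animals the labels say PBS and the protocol says saline with 0.05 to 0.1% DMSO. Compound columns are marked 24 h and vehicle columns have no time, in a series with collections at 24 h, 3 d and 7 d, so time and compound cannot be told apart. The labels do not say whether libraries of a group are separate animals, so the error behind each p-value is that between libraries, part of which may be technical.

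Immediate early genes are switched on within minutes of a stimulus, without new protein synthesis, by transcription factors that already sit in the cell. SRF with its cofactors and CREB, both downstream of MAP kinases and calcium, drive many of them, and YAP and TAZ with TEAD factors drive Ccn1 and Ccn2. The members include transcription factors, signalling inhibitors and secreted matrix-associated proteins, and their transcripts are short-lived. In retina they are used as markers of neuronal activity, light responses and injury, and in Müller glia several of them respond to damage.

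Tables of the tunicamycin, Ceapin-A7 and PBS.2 libraries listed the same genes, and so did those of AA147 and PBS, so each compound was set against the vehicle set of its own family. Between PBS.2 and PBS 46.8% of all tested genes passed the test (limma adjusted p under 0.05), so no compound is set against the vehicle of the other family in the results. Estimated depth was 15.2 to 25.2 M fragments, lowest in Ceapin-A7 library 3. As a check of the tissue label, the 8 Müller glia markers, a glial type of the retina, summed to between 823.8 and 2014 FPKM over the libraries. Of 8 ER stress genes 7 rose with tunicamycin against PBS.2, and 8 without PBS.2 libraries 4 and 5. Libraries 4 and 5 of PBS.2 stand apart in several members, and the changes and counts of calls against PBS.2 are also given without them where they differ. These libraries were picked out after the values were seen, so results without them are descriptions and no independent support. Ddx3y, a Y-linked gene, was under 1 FPKM in 0 of 5 tunicamycin, 2 of 5 Ceapin-A7 and 2 of 5 AA147 libraries, and in 4 of 5 PBS.2 and 0 of 5 PBS libraries, so libraries with and without this transcript were spread unevenly over the groups. The Ceapin-A7, AA147 and PBS.2 groups each held both kinds, so the libraries of each of these groups came from more than 1 animal. The PBS.2 library that carried Ddx3y was library 5 (16.3 FPKM), so without libraries 4 and 5 every PBS.2 library left lacked it. Every tunicamycin library carried it, so in fits without those libraries this difference and tunicamycin cannot be told apart.

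Promoters of 4 members are shown, Ccn1 and Dusp1 among those that rose with tunicamycin and Fos and Nr4a1 among those that varied together, because transcription factors known to drive such genes bind near their starts. Of the 10 members 7 had an entry in the RefSeq promoter table (GRCm38.p6), all but Ccn2, Egr1 and Ier2, in which 250 bases before the start were searched on both strands. Each is given in the direction of its gene. Capitals mark matches on either strand to TGACG, the core of the cAMP response element bound by CREB and ATF factors (on the other strand it reads CGTCA), to the TEAD site CATTCC and to the TATA box TATAAA.
Ccn1, chr3:145649986-145650235, minus strand: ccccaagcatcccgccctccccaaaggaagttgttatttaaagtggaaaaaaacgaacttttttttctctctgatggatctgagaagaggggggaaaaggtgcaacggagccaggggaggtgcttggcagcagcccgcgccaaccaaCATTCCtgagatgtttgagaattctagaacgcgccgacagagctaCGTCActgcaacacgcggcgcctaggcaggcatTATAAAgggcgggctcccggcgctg
Dusp1, chr17:26508473-26508722, minus strand: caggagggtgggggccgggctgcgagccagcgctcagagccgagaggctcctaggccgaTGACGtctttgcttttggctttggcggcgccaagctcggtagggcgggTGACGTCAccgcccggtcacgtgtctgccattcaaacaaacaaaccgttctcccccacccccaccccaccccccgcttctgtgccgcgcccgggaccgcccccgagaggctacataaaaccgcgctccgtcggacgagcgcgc
Fos, chr12:85473640-85473889, plus strand: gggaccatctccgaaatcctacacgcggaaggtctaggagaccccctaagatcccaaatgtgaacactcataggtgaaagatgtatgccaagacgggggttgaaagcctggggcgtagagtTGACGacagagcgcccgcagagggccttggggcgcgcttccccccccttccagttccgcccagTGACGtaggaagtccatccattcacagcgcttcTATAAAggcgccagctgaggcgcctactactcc
Nr4a1, chr15:101266596-101266845, plus strand: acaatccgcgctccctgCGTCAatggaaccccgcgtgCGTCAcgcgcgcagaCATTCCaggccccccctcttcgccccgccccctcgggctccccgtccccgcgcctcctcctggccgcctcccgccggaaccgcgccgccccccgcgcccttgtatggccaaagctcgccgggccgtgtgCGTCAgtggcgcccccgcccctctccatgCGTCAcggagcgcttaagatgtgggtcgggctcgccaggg

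TGACG was found in 7 of 7 member promoters and in 17.8% of the 32851 promoters of the table. The full element TGACGTCA, which contains that core on both strands, was found in Dusp1 and Btg2 and in 1.55% of all promoters. CATTCC was found in Ccn1 and Nr4a1 and in 12.6% of all promoters, and in Ccn1 it lay 103 to 98 bases before the start. TATAAA was found in Fos and Ccn1 and in 12.4% of all, 33 to 28 and 25 to 20 bases before their starts. GGGCGG, the GC box, was found in 6 of 7 and in 32.7% of all. The SRF-binding CArG box (1.47% of all promoters), the AP-1 site TGANTCA (6.75%), the ATF6 site TGACGTGG (0.563%) and the ER stress response element, searched by its consensus (0.113%) were found in 0 of 7 within this window. These matches are of letters alone.

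Levels ranged widely among the members. Over the 25 libraries Btg2, an antiproliferative cofactor of mRNA deadenylation, had the highest mean at 57.3 FPKM, at percentile 89.7 of tested genes. Fosb, an AP-1 subunit, had the lowest at 1.98 FPKM, at percentile 10.1, and Ccn1 averaged 5.24 FPKM. The other 7 averaged between 11.4 FPKM in Ccn2 and 22.5 FPKM in Nr4a1. Members varied between libraries of one group more than most genes did: all 10 had a within-group SD above the median of 0.105 (log2 scale) over tested genes. That SD was 0.52 in Egr1 and 0.48 in Junb, at percentiles 98.4 and 98.1, and 0.16 in Btg2, at percentile 79.6.

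**Figure D1:**
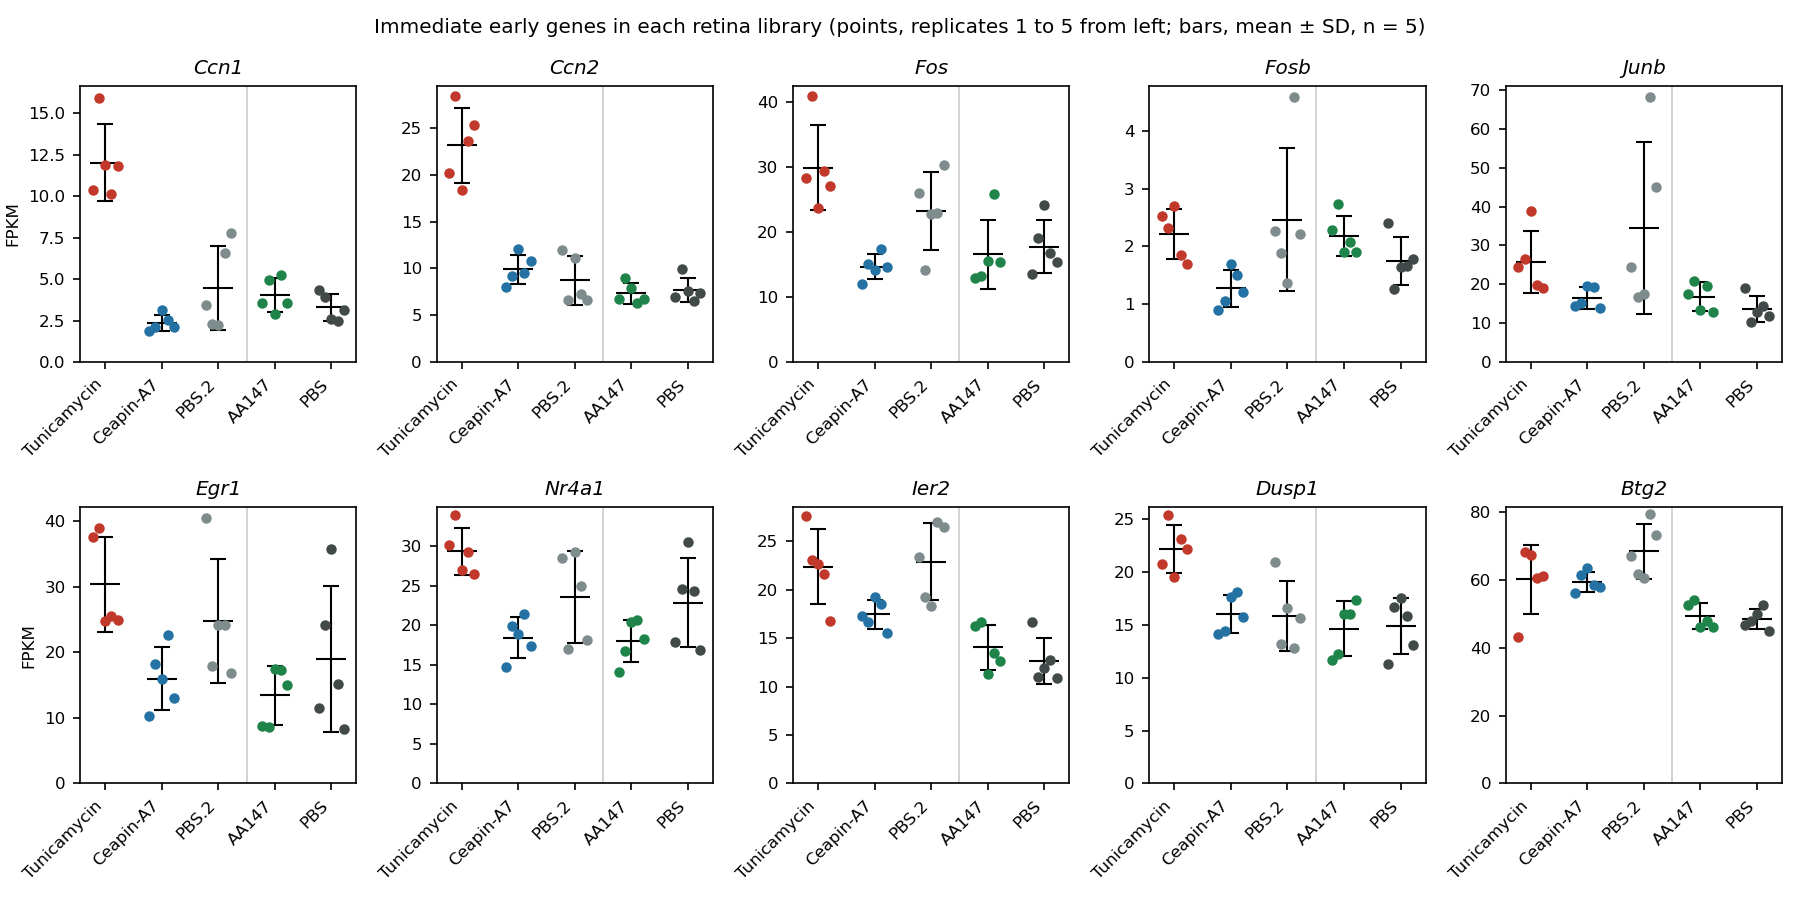
FPKM of the 10 immediate early genes in each library; points are libraries and bars are the mean with SD (n = 5), with a line between the table families. Ccn1 lies at 10.1 FPKM or above in all 5 tunicamycin libraries and at 7.79 FPKM or below in PBS.2, while the PBS.2 points of Junb reach 68.2 FPKM.

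Tunicamycin was set against PBS.2 to see which immediate early genes differed between these groups. Of the 10, 3 rose, Ccn1, Ccn2 and Dusp1, 0 fell and 7 did not pass, with 8.7% of all tested genes passing (5.89% higher, 2.81% lower). Of all calls 67.7% were higher, and 50.4% after median-ratio scaling of the libraries. The Ccn genes encode secreted proteins of the matrix that signal through integrins, and both stood 2.66-fold or more above PBS.2 in mean FPKM. The ER stress gene Hspa5 had 1513, 495, 229, 581 and 427 FPKM in tunicamycin libraries 1 to 5. Both Ccn genes were highest in tunicamycin library 2, and whether members followed the strength of ER stress was not tested.

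Ccn1 (gene ID 16007, also known as Cyr61) had 10.4, 15.9, 11.9, 10.1 and 11.8 FPKM in tunicamycin libraries 1 to 5, against 3.41, 2.32, 2.25, 6.56 and 7.79 FPKM in PBS.2 libraries 1 to 5. Every tunicamycin library was above every PBS.2 library, and in the PBS.2 set the highest were libraries 4 and 5. Its mean was 12.02 ± 2.34 FPKM with tunicamycin and 4.47 ± 2.55 FPKM in PBS.2 (SD, n = 5 each), a log2 change of 1.36 ± 0.22 (SE, limma adjusted p = 0.000432). Without PBS.2 libraries 4 and 5 the change was 1.83 (limma adjusted p = 5.94e-07). Leaving out its highest PBS.2 values raises the change by construction, and every PBS.2 library left lacked Ddx3y. With only the compared groups in the fit, the limma adjusted p was 0.0538.

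Ccn2 (gene ID 14219), or connective tissue growth factor, had 20.2, 28.4, 18.3, 23.6 and 25.3 FPKM in tunicamycin libraries, against 11.9, 6.65, 11.1, 7.31 and 6.61 FPKM in PBS.2. The groups again did not overlap, and here PBS.2 libraries 4 and 5 were among the low ones. The means were 23.1 ± 4.00 and 8.72 ± 2.58 FPKM in tunicamycin and PBS.2 (SD, n = 5 each), a log2 change of 1.34 ± 0.15 (SE, limma adjusted p = 2.24e-06), and 1.17 without PBS.2 libraries 4 and 5 (limma adjusted p = 0.000126). Ccn1 and Ccn2 were the 2 of 10 members whose tunicamycin libraries all lay above PBS.2, as 2.81% of all tested genes did, while 0 lay all below, as 1.24% of all did. Each had an exact permutation p of 0.00794 (two-sided, unadjusted), the smallest that 5 against 5 allows.

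Dusp1 (gene ID 19252), a phosphatase that inactivates MAP kinases, had 20.8, 25.4, 19.5, 23.1 and 22.2 FPKM with tunicamycin, against 21.0, 13.2, 16.6, 12.9 and 15.6 FPKM in PBS.2. All but PBS.2 library 1 lay below the tunicamycin range. The log2 change was 0.47 ± 0.13 (SE, limma adjusted p = 0.0231), with an exact permutation p of 0.0238 (n = 5 each). The call was lost without PBS.2 libraries 4 and 5 (0.39, limma adjusted p = 0.109), with only the compared groups in the fit (limma adjusted p = 0.119), and without tunicamycin library 2 or 4 or PBS.2 library 2 or 4 (limma adjusted p from 0.0502 to 0.0626).

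Markers of vessel cells and pigment epithelium moved in the same tunicamycin libraries in which Ccn1, Ccn2 and Dusp1 rose, and in bulk tissue fewer cells of a type and less RNA per cell cannot be told apart. Against PBS.2, 5 of 10 endothelial markers fell and 2 rose, with summed levels of 65.6 to 98.0 FPKM with tunicamycin and 107 to 135 FPKM in PBS.2. Of 9 pericyte and smooth muscle markers 5 fell and 0 rose, with sums of 14.1 to 21.0 FPKM and 32.6 to 44.5 FPKM in tunicamycin and PBS.2. Of 8 tested pigment epithelium markers 5 fell and 0 rose, with sums over 9 genes of 21.2 to 74.4 and 119 to 241 FPKM.

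Against Ceapin-A7 the same counts passed for endothelial and pericyte markers, whose sums with Ceapin-A7 were 99.9 to 121 FPKM and 36.6 to 89.3 FPKM, and 1 of 8 pigment epithelium markers was lower. The rod marker Nrl was also lower than with Ceapin-A7 (-0.32 ± 0.09 SE, limma adjusted p = 0.0194), and S100a8, the 1 tested marker of 7 for neutrophils and monocytes, was higher (0.86 ± 0.28 SE, limma adjusted p = 0.0424). The lens was removed at dissection, and 0 of 8 lens markers passed, but their sums ran from 2.98 to 12190 FPKM with tunicamycin and from 5.92 to 4509 FPKM in PBS.2. No gene of these 4 lists was at 0 throughout a group. Of 8 Müller glia, 8 gliosis and 9 microglia markers 0 passed in limma against PBS.2. Without PBS.2 libraries 4 and 5 the endothelial, pericyte and pigment epithelium markers gave the same counts, and the rod markers Gnat1 and Pde6a fell by 0.31 and 0.23. The part of these shifts in the rise of the Ccn genes was not tested. With the level of Ddx3y as a covariate, Ccn1, Ccn2 and Dusp1 still passed, at 1.202, 1.37 and 0.60 (limma adjusted p = 0.0171, 7.95e-05 and 0.0354). Ddx3y was under 1 FPKM in 0 of 5 tunicamycin and 4 of 5 PBS.2 libraries. The covariate thus nearly follows the contrast, and this fit cannot fully tell it apart from tunicamycin.

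The AP-1 genes did not pass. Fos, whose protein pairs with Jun proteins, had 28.3, 41.0, 23.6, 29.4 and 27.2 FPKM with tunicamycin, against 26.1, 14.1, 22.8, 22.9 and 30.3 FPKM in PBS.2 (log2 change 0.37 ± 0.19 SE, limma adjusted p = 0.229). Junb, an AP-1 partner, had 24.5, 26.6, 38.8, 19.7 and 19.1 FPKM with tunicamycin, against 24.5, 16.7, 17.6, 68.2 and 45.1 FPKM in PBS.2. The 2 highest Junb values of the series were thus PBS.2 libraries 4 and 5, and its log2 change of -0.24 ± 0.28 (SE) was 0.35 without them (limma adjusted p = 0.642 and 0.32). Fosb changed by -0.05 ± 0.16 (SE), or 0.18 without those libraries, and both of its groups overlapped.

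Among the other regulators, Nr4a1, an orphan nuclear receptor, had 26.5 to 33.9 FPKM with tunicamycin, median 29.3, against 17.0 to 29.3 FPKM in PBS.2, median 24.98 (log2 change 0.33 ± 0.15 SE, limma adjusted p = 0.181). Egr1, a zinc-finger factor, had 24.8 to 38.9 FPKM, median 25.5, against 16.9 to 40.4 FPKM, median 24.2, in PBS.2 (0.32 ± 0.31 SE, limma adjusted p = 0.548). Ier2, a nuclear protein, changed by -0.03 ± 0.13 and Btg2 by -0.19 ± 0.09 on the log2 scale (SE, limma adjusted p = 0.908 and 0.199). Without PBS.2 libraries 4 and 5 the changes were 0.51 in Fos, 0.26 in Nr4a1, 0.19 in Egr1 0.12 in Ier2 and -0.09 in Btg2, and none of these passed in limma. In limma on all libraries 5 members had an unadjusted p under 0.05 (4 higher, 1 lower), as did 24.6% of all genes. The median change of the 10 was 0.33, against 0.01 over all tested genes.

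The series also let tunicamycin be set against Ceapin-A7, a contrast that uses no vehicle library except in the pooled spread. Here 6 of the 10 members, Ccn1, Ccn2, Fos, Nr4a1, Dusp1 and Fosb, were higher with tunicamycin, 0 were lower and 4 did not pass, with 13.3% of all genes passing (8.83% higher, 4.48% lower). Of all calls 66.3% were higher, and 53.3% after median-ratio scaling. In 6 members all 5 tunicamycin libraries lay above all 5 Ceapin-A7 libraries, as in 6.73% of all genes, and in 0 all lay below, as in 2.74%. These were Fos, Egr1, Dusp1, Nr4a1, Ccn1 and Ccn2.

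Ccn1 had 10.1 to 15.9 FPKM in tunicamycin libraries, against 1.86, 2.11, 3.12, 2.56 and 2.13 FPKM in Ceapin-A7 libraries 1 to 5, and its tunicamycin mean was 5.10-fold that of Ceapin-A7 (log2 change 1.95 ± 0.22 SE, limma adjusted p = 3.12e-06). Ccn2 had 18.3 to 28.4 FPKM with tunicamycin, against 8.02, 9.20, 12.1, 9.51 and 10.8 FPKM with Ceapin-A7, a 2.33-fold difference in the mean (1.14 ± 0.15, limma adjusted p = 2.33e-05). In both genes the lowest tunicamycin library lay above the highest Ceapin-A7 library.

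Fos had 23.6 to 41.0 FPKM with tunicamycin, against 11.97, 15.1, 14.2, 17.4 and 14.7 FPKM with Ceapin-A7, a 2.04-fold difference in the mean (log2 change 0.97 ± 0.19 SE, limma adjusted p = 0.00186). Nr4a1 had 26.5 to 33.9 FPKM with tunicamycin, against 14.7 to 21.4 FPKM with Ceapin-A7 (log2 change 0.65 ± 0.15 SE, limma adjusted p = 0.00825). Dusp1 differed by 0.45 ± 0.13 and Fosb by 0.50 ± 0.16 (limma adjusted p = 0.0248 and 0.0403). Of the 6 members that passed, Fosb alone had groups that met, with 1.69 to 2.69 FPKM in tunicamycin and 0.90 to 1.69 FPKM in Ceapin-A7 libraries.

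Fosb lost the call without tunicamycin library 1, 2 or 3 or Ceapin-A7 library 1, 2, 4 or 5 (limma adjusted p from 0.0504 to 0.108), and Dusp1 lost it without tunicamycin library 2 or 4 or Ceapin-A7 library 1 or 2 (0.0511 to 0.0667). Egr1 had 37.5, 38.9, 24.8, 25.5 and 24.9 FPKM with tunicamycin, against 10.2, 18.1, 15.95, 22.6 and 13.1 FPKM with Ceapin-A7. Its groups did not overlap, yet the log2 change of 0.90 ± 0.31 (SE) had a limma adjusted p of 0.0528, or 0.0364 with only the compared groups in the fit. Its exact permutation p was 0.00794 (n = 5 each, two-sided, unadjusted). Egr1 passed without tunicamycin library 3 or without Ceapin-A7 library 4.

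Junb and Ier2 differed by 0.58 ± 0.28 and 0.33 ± 0.13 on the log2 scale (SE, limma adjusted p = 0.164 and 0.0904), and Ier2 passed without tunicamycin library 5. With PBS.2 libraries 4 and 5 out of the pooled spread, Junb passed (limma adjusted p = 0.0341). Btg2 had almost the same mean in both, 60.2 ± 10.1 and 59.6 ± 2.95 FPKM in tunicamycin and Ceapin-A7 (SD, n = 5 each), with a 95% interval of -0.19 to 0.19 for its log2 difference. At an unadjusted p under 0.05 limma gave 9 of the 10 members in this contrast and 30% of all tested genes (3938), and the median change of the 10 was 0.61, against 0.01 over all tested genes.

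**Figure D2:**
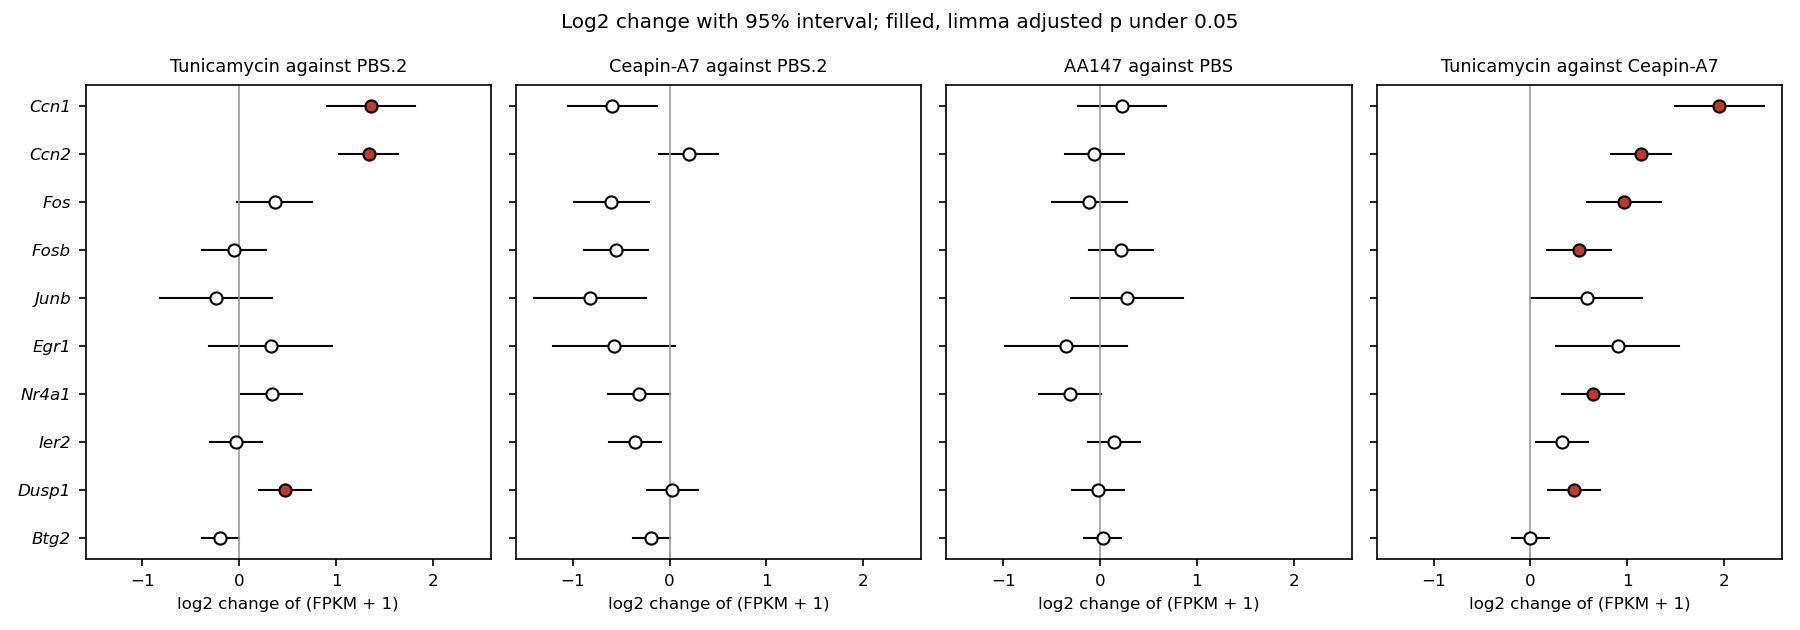
Log2 change of FPKM + 1 with its 95% interval for each member in 4 comparisons; filled points passed at a limma adjusted p under 0.05. Ccn1 and Ccn2 stand at 1.36 and 1.34 for tunicamycin against PBS.2, and 8 of 10 points lie below 0 for Ceapin-A7 against PBS.2.

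Ceapin-A7 was set against PBS.2 to see whether an ATF6 inhibitor moved these genes in the absence of tunicamycin. In limma 0 of 10 members and 0% of all tested genes passed, and the smallest adjusted p of any gene was 0.0649. At an unadjusted p under 0.05 limma gave 5 members, all lower, and 1615 genes (12.3%). Differences were negative in 8 of 10 members, with a median of -0.46, against 0.00 over all tested genes. Of the 8 ER stress genes 0 passed with Ceapin-A7, with a median log2 change of -0.20. Whether Ceapin-A7 acted on ATF6 in these retinas was not tested.

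Ceapin-A7 libraries 1 to 5 had Junb at 14.4, 15.2, 19.6, 19.4 and 13.9 FPKM, against the 16.7 to 68.2 FPKM in PBS.2 (log2 change -0.82 ± 0.28 SE, limma adjusted p = 0.304). Fos changed by -0.60 ± 0.19, Ccn1 by -0.59 ± 0.22, Egr1 by -0.57 ± 0.31 and Fosb by -0.56 ± 0.16 (SE, limma adjusted p from 0.304 to 0.443). Dusp1 and Ccn2 were the exceptions, at 0.03 ± 0.13 and 0.20 ± 0.15. The groups overlapped in every member, where all Ceapin-A7 libraries lay above PBS.2 in 0.968% and below it in 0.48% of all genes.

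Unadjusted exact permutation p-values (n = 5 each) were 0.0238 for Fosb, 0.0317 for Ier2 and 0.0397 for Fos and for Btg2. These 4 of 10 members share the same PBS.2 libraries. The share of all tested genes under this test was not computed, so whether 4 of 10 is unusual cannot be told. Without PBS.2 libraries 4 and 5 the Junb difference shrank to -0.23 and that of Ccn1 to -0.12, while Egr1 stood at -0.71, Fos at -0.46, Nr4a1 at -0.39, Fosb at -0.32 and Ier2 at -0.21. Btg2, Dusp1 and Ccn2 were then at -0.08, -0.06 and 0.03, so that 9 of 10 members were negative and 0 passed in limma. The SD of Junb was 2.77 FPKM with Ceapin-A7 and 22.1 FPKM in PBS.2.

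AA147 was set against PBS as the ATF6 activator. Again 0 of 10 members and 0% of all tested genes passed in limma, with 0 members and 246 genes (1.88%) at an unadjusted p under 0.05. Of the 8 ER stress genes 0 passed with AA147, with a median log2 change of 0.08. Hspa5, one of them, averaged 140 FPKM with AA147 and 156 FPKM in PBS (log2 change -0.15 ± 0.28 SE). Whether AA147 acted on ATF6 in these retinas was not tested. Of the 10 members 5 were above 0 and 5 below, with a median change of 0.00, against 0.01 over all tested genes. Ccn1 had 3.53, 4.94, 2.92, 5.26 and 3.55 FPKM with AA147, against 4.33, 3.93, 2.59, 2.48 and 3.15 FPKM in PBS (log2 change 0.23, 95% interval -0.23 to 0.69). Ccn2 had 6.33 to 8.95 FPKM with AA147, against 6.54 to 9.93 FPKM in PBS (-0.06, 95% interval -0.37 to 0.25). The changes farthest from 0 were Egr1 at -0.36 ± 0.31 and Nr4a1 at -0.31 ± 0.15 (SE, limma adjusted p = 1 for both). The groups overlapped in all 10 members, where all AA147 libraries lay above PBS in 0.45% and below it in 0.206% of all genes.

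Egr1 had the widest range of any member in PBS. PBS libraries 1 to 5 had 11.5, 24.1, 35.7, 15.2 and 8.24 FPKM, a range of 4.33-fold within 1 group. AA147 libraries had 8.77, 8.55, 17.4, 17.3 and 15.0 FPKM, all inside the PBS range. Changes of the size seen for Ccn1 and Ccn2 with tunicamycin lay outside the AA147 intervals of both genes.

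The effects of tunicamycin and AA147, each taken against its own vehicle set, were compared directly. Ccn2 was the 1 of 10 members that passed, with an effect 1.395 ± 0.21 log2 units larger for tunicamycin (limma adjusted p = 0.000466), where 1.04% of all genes passed (0.64% higher, 0.396% lower). For Ccn1 the difference was 1.13 ± 0.31 (limma adjusted p = 0.0783) and did not pass. Without PBS.2 libraries 4 and 5, its highest PBS.2 values, it was 1.60 (limma adjusted p = 0.000404), a rise that follows from leaving them out. The Ccn1 difference also passed without tunicamycin library 3, PBS.2 library 4 or PBS.2 library 5. Between the Ceapin-A7 and AA147 effects 0 members and 0% of genes passed in limma, with 4 members, all lower for Ceapin-A7, and 882 genes at an unadjusted p under 0.05.

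PBS.2 was higher than PBS in 3 of 10 members and lower in 0, where 46.8% of all genes passed (26.3% higher, 20.5% lower). Ier2 had 23.3, 19.3, 18.3, 26.9 and 26.5 FPKM in PBS.2, against 16.6, 10.97, 11.9, 12.7 and 10.9 FPKM in PBS, with no overlap (log2 change 0.81 ± 0.13 SE, limma adjusted p = 1.59e-05). Btg2 averaged 68.5 ± 7.98 FPKM in PBS.2 and 48.5 ± 3.01 FPKM in PBS (SD, n = 5 each; 0.48 ± 0.09, limma adjusted p = 0.000145). Junb was 1.08 ± 0.28 higher in PBS.2 (limma adjusted p = 0.0026), and 0.49 without libraries 4 and 5 (limma adjusted p = 0.064). Ier2 and Btg2 were thus the 2 of 10 with all PBS.2 libraries above PBS, as 19.1% of all genes were, and 14.4% of all genes had them all below.

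Within groups, the members fell into sets that rose and fell together from library to library. This grouping was noticed after the values were seen, and the r values are descriptions over 25 libraries, centred on their group means, that share library, depth and dissection. Fos, Egr1, Nr4a1 and Dusp1 correlated with each other at r = 0.64 to 0.88 over their 6 pairs, with 0.88 for Egr1 and Nr4a1. Fosb, Junb and Ier2 formed a second set, at r = 0.73 to 0.86 over 3 pairs. Between the sets the 12 pairs lay at r = -0.37 to 0.19, and over all 45 pairs the median was 0.17.

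Without PBS.2 libraries 4 and 5, in 23 libraries, the first set stood at r = 0.78 to 0.88, the second at 0.73 to 0.83 and the pairs between them at -0.30 to 0.04. The Ccn genes, which rose together with tunicamycin, had r = -0.06 within groups, and 0.44 without those libraries. Ccn1 went with Junb at r = 0.78, Fosb at 0.60 and Ier2 at 0.56, or 0.55, 0.50 and 0.40 without those libraries. It was thus near the second set, and the gap between the sets depends in part on leaving it out. Btg2 went with Junb at 0.55, or 0.36, and Ccn2 with Dusp1 at 0.52, or 0.50.

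**Figure D3:**
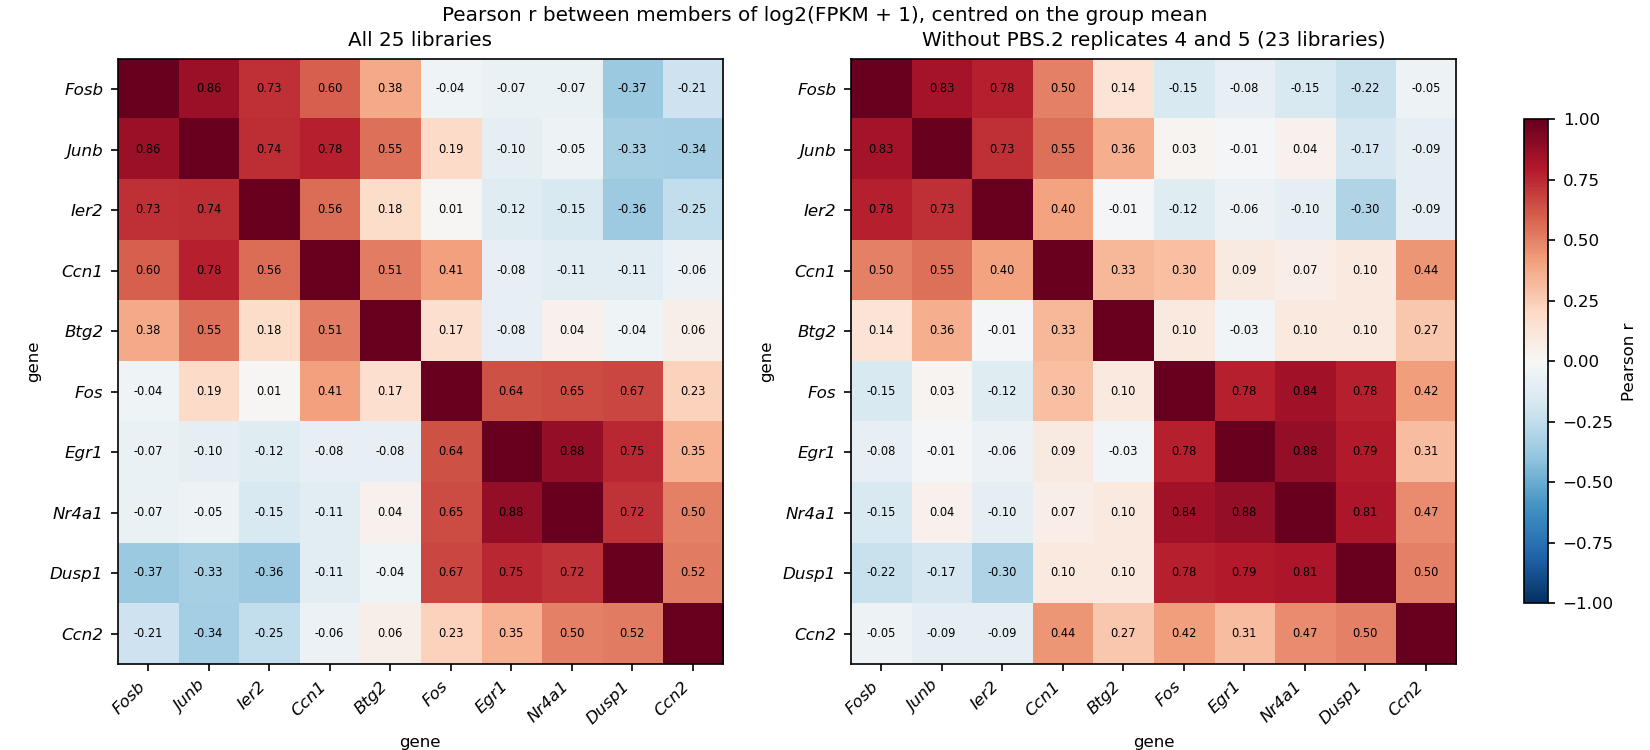
Pearson r of each pair of members over libraries, centred on group means, in all 25 libraries (left) and without PBS.2 libraries 4 and 5 (right). The block of Fos, Egr1, Nr4a1 and Dusp1 holds r of 0.64 or more at left and 0.78 or more at right.

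Which library of a group was highest followed these sets in some groups and not in others. In PBS, library 3 was highest for Fos, Egr1, Dusp1 and Nr4a1, and library 1 for Fosb, Junb, Ier2 and Ccn1. With Ceapin-A7, library 4 was highest for Fos, Egr1, Dusp1 and Nr4a1, and library 3 for Fosb, Junb, Ier2, Ccn1, Ccn2 and Btg2. With tunicamycin, library 2 was highest in 7 members, and library 3 was highest for Fosb and Junb while lowest for Fos, Egr1, Dusp1 and Ccn2. Ier2 was highest in tunicamycin library 1. Ceapin-A7 library 1 was the lowest of its group in 8 of 10 members. In AA147 the first set was split, with Fos and Nr4a1 highest in library 4, Egr1 in library 3 and Dusp1 in library 5. In PBS.2 it was split too, with Egr1 and Dusp1 highest in library 1, Nr4a1 in library 3 and Fos in library 5.

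Outside the members, the genes closest to each one by the same r were also described. Egr1 and Dusp1 were closest to other members, Nr4a1 (0.88) and Egr1 (0.75), and Nr4a1 to Egr1. Junb was closest to Gadd45b, a stress-induced growth arrest gene (0.96), and then to Wwtr1, which encodes TAZ, and Stat3, a cytokine-activated transcription factor (0.93 each). Fos was closest to Cited2 (0.78), Fosb to Sec22c (0.95), Ier2 to Kif1b (0.87) and Btg2 to Rnf145 (0.84). Ccn1 was closest to Bag3, a cochaperone (0.90), and Ccn2 to Lrig3 (0.85). These r values were computed with PBS.2 libraries 4 and 5 included.

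**Figure D4:**
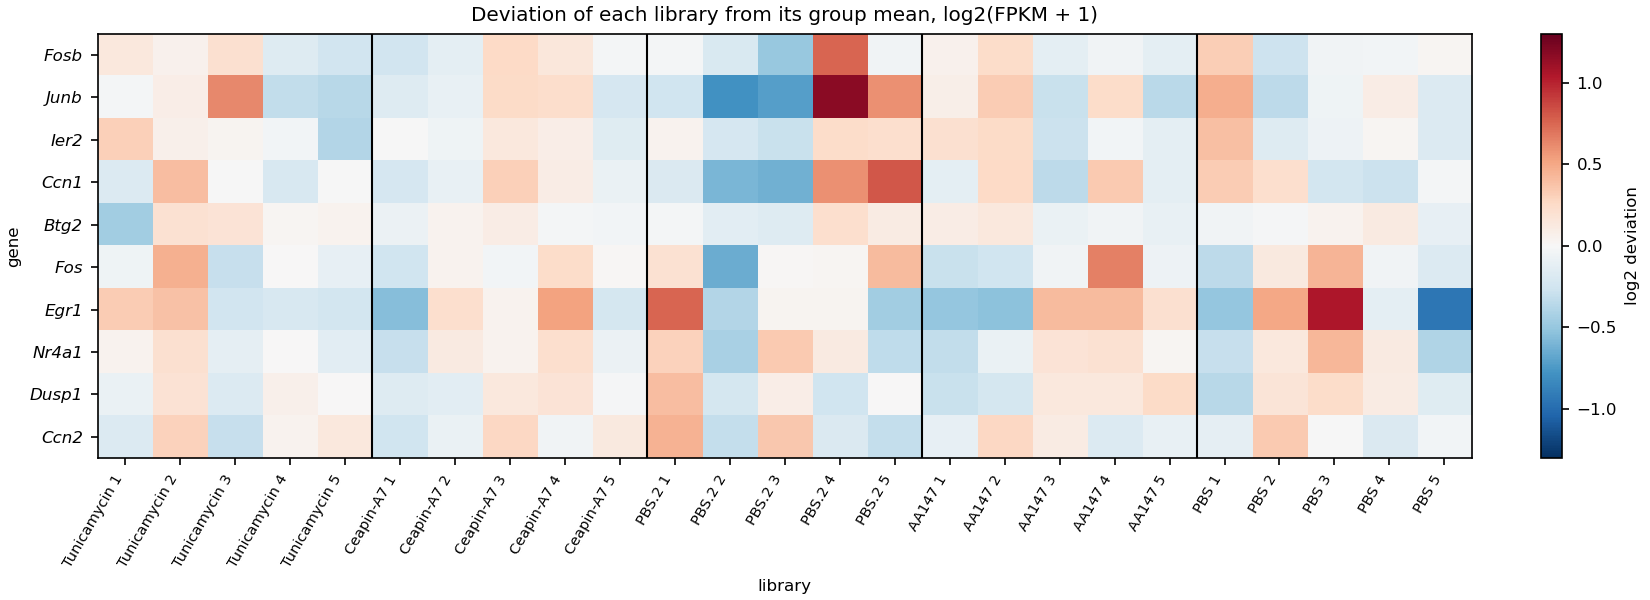
Deviation of each library from its group mean in log2(FPKM + 1) for the 10 members, red above and blue below the mean, with black lines between groups. PBS.2 library 4 stands out in Junb (68.2 FPKM), and PBS library 3 in Egr1 (35.7 FPKM).

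Other genes of the pathway were read from lists. With tunicamycin against PBS.2, 0 of 7 CREB family genes, 0 of 9 MAP kinase feedback inhibitors, 0 of 15 MAP kinases and upstream kinases and 0 of 11 YAP and TAZ genes passed in limma. Of 6 SRF genes 1 fell, the cofactor gene Elk3 by 0.24 on the log2 scale. Of 7 other AP-1 and ATF genes 1 rose, Mafk, which encodes a small Maf protein, by 0.37 ± 0.09 (SE, limma adjusted p = 0.0108). Of 10 other immediate early transcription factors 1 fell, Klf2, a factor of endothelial cells among others, by 0.67 ± 0.15 (SE, limma adjusted p = 0.00689).

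Of 17 other immediate early effectors 3 rose and 1 fell. Ppp1r15a, which encodes the GADD34 subunit that reverses translation arrest in ER stress, rose by 0.80 ± 0.18 (SE, limma adjusted p = 0.00852), and the kinase genes Plk3 and Plk2 rose by 0.48 and 0.35. Sgk1, a glucocorticoid-induced kinase gene, fell by 0.36. Of 4 other BTG and TOB genes Btg1 rose by 0.20, and of 6 integrin and receptor genes Itgav, which encodes an integrin subunit that binds CCN proteins, changed by -0.30 ± 0.08 (SE, limma adjusted p = 0.0288). The 1 other CCN gene that could be tested, Ccn4, had 12.9 ± 0.83 FPKM with tunicamycin and 10.4 ± 1.92 FPKM in PBS.2 (SD, n = 5 each) and did not pass.

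These list counts against PBS.2 turn on its libraries 4 and 5. Without them, a fit added after the data were seen, 5 of the 7 other AP-1 and ATF genes rose, where over all tested genes 829 rose and 202 fell. In that fit every tunicamycin library carried Ddx3y and every PBS.2 library left lacked it, so that difference and tunicamycin cannot be told apart. Atf3 had 53.0, 18.2, 13.2, 15.0 and 10.0 FPKM in tunicamycin libraries 1 to 5, against 6.37, 6.40 and 4.86 FPKM in PBS.2 libraries 1 to 3 and 28.6 and 20.7 FPKM in libraries 4 and 5. Tunicamycin libraries thus lay above the first 3 PBS.2 libraries and overlapped the other 2. Its change without libraries 4 and 5 was 1.49 ± 0.33 (SE, limma adjusted p = 0.00871), with Maff at 1.01, Fosl2 at 0.86, Mafk at 0.51 and Jun at 0.41.

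In the same fit 4 of the 10 other transcription factors rose, Cebpb by 1.39, Myc by 0.81, Klf6 by 0.48 and Klf10 by 0.42, and Klf2 still fell. Of the 17 effectors 5 rose, with Gadd45g and Bdnf beside the 3 above, and Sgk1 fell. Of 9 feedback inhibitors 2 rose, Dusp6 by 0.38 and Spred1 by 0.21. Wwtr1, which encodes TAZ, was the 1 of 11 YAP and TAZ genes that rose (0.42 ± 0.10 SE, limma adjusted p = 0.0155). It had 6.04 to 7.71 FPKM with tunicamycin, against 4.24 to 5.35 FPKM in PBS.2 libraries 1 to 3 and 10.7 and 8.16 FPKM in libraries 4 and 5.

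Of 7 CREB family genes Crebbp then rose by 0.29, of 4 BTG and TOB genes Btg1 and Btg3 rose, and of 6 integrin and receptor genes Lrp6 rose by 0.15. Elk3 and Itgav no longer passed (limma adjusted p = 0.164 and 0.216), and 0 of 15 MAP kinases and upstream kinases passed in limma.

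Against Ceapin-A7, 5 of the 7 other AP-1 and ATF genes were higher with tunicamycin. Atf3, a stress-induced ATF gene, was 1.90 ± 0.39 higher (SE, limma adjusted p = 0.00291), Fosl2 0.97, Maff 0.91, Mafk 0.49 and Jun 0.43. Of the 10 other transcription factors 3 were higher and 1, Klf2, was lower, and 4 effectors were higher and 1 lower. Of 11 YAP and TAZ genes Wwtr1 was 0.55 ± 0.15 higher (SE, limma adjusted p = 0.0182), Lats1 was higher too and Cavin2 was lower. In the 23 other lists, 178 tested genes in all, limma passed 0 genes for Ceapin-A7 against PBS.2, with and without PBS.2 libraries 4 and 5, and 0 for AA147 against PBS.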

How the data were processed

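Retina RNA was read as stranded mRNA libraries, per the labels' protocols. The authors deposited FPKM values, rounded to 2 decimals, as one table for each group. HISAT2 2.0.4, RSEM 1.2.18, DESeq2 1.4.5 and GRCm39 are named in the submitters' processing notes, without roles. Titles gave each column its sample, and 0 value columns went unused.

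Since FPKM is not a count, log2(FPKM + 1) was tested; this shrinks changes of genes near 0. Kept genes were in all 5 tables with at least 1 FPKM in at least 5 libraries (13117 of 18440). A single linear model of the 5 groups was fitted in limma 3.58.1 (R 4.3.3) with an intensity trend, two-sided, and Benjamini-Hochberg adjustment over 13117 genes, so each SE pools the spread of all groups. A gene passed, or was called, at an adjusted p under 0.05. Members were also tested by exact permutation of 5 against 5 libraries, 40 tests, unadjusted. Other genes were not tested in this way, so no share over all genes is given for it. The fit was tested on simulated data. Correlations and motif searches used Python 3.11.15.

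The members and the 23 other lists were chosen with earlier results of these data known. All 10 members are described; from the other lists the called genes are named, up to 6 per list, and for likeness the closest tested genes by r. Depth was estimated from the spacing of low values in 4024 genes with one transcript, taking 250 bases as unable to start a fragment. Mean distances to a whole fragment were 0.152 to 0.178, against 0.25 by chance, so whole reads were not recovered and no counting intervals are given. At the median of 23.4 M, 1 FPKM over 2 kb is about 41 fragments. The promoter table was of GRCm38, not the build named for the files, so its coordinates are of that build only. Alternatives were another pseudocount, no filter, median-ratio scaling, a replicate block, a Ddx3y covariate, compared groups only, libraries left out and the other vehicle set.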

Additional observations from a re-analysis of the deposited data

Results flagged for a closer look

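Fos in AA147 replicate 4 was 25.88 FPKM, set apart from the other 4 AA147 libraries at 13.0 to 15.6 FPKM. Fosb in PBS.2 replicate 4 was 4.59 FPKM, set apart from the other 4 PBS.2 libraries at 1.36 to 2.26 FPKM. A test for a single distant value was run on each member in each group, 50 tests in all. Chance alone marks about 1 in 20 groups, so 2 marks in 50 are no more than chance gives. The Ccn2 effect of tunicamycin, less that of AA147, was 1.395 on the log2 scale, a difference that passed its own test (limma adjusted p = 0.000466).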

How the results depend on the processing

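Scale, filter and scaling left the calls of tunicamycin against PBS.2 at 3 members under a pseudocount of 0.1, no filter, median-ratio scaling and the Ddx3y covariate. The count was 1 with the compared groups only, 9 with the other vehicle set, and 2 to 3 leaving out 1 library at a time. It was 2 without PBS.2 replicates 4 and 5. With the other vehicle set, 2 members were called for Ceapin-A7 and 5 for AA147, both 0 otherwise and 0 leaving out any 1 library. That setting crosses the table families. Among members called in it, the direction turned for tunicamycin in Junb to 0.84, Ier2 to 0.78 and Btg2 to 0.29. It turned for Ceapin-A7 in Ier2 to 0.45 and Btg2 to 0.29. For AA147 it turned in Junb to -0.80, Ier2 to -0.66 and Btg2 to -0.46. Fosb for tunicamycin, Junb for Ceapin-A7 and Fosb and Ccn1 for AA147 also turned, without passing. Tunicamycin against Ceapin-A7 gave 4 to 7 members leaving out 1 library, against 6, and Fosb also lost its call with no filter (limma adjusted p = 0.0541) and with the Ddx3y covariate (0.0672). The tunicamycin effect minus the AA147 effect was called in 2 members without PBS.2 replicates 4 and 5, and in 1 to 2 leaving out 1 library. PBS.2 against PBS gave 3 to 4 leaving out 1 library and 2 without PBS.2 replicates 4 and 5. The Ceapin-A7 effect minus the AA147 effect gave 0 throughout. The cause was not tested.

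Replicate numbers were not taken as pairs in the main fit: same-numbered deviations correlated at -0.489 to 0.6 over 50 pairs, and 21 were over 0.1. Libraries of different numbers were not compared, so these values cannot decide whether the numbers pair the libraries. A fit with the replicate number as a block called 3 members for tunicamycin against PBS.2, 5 for tunicamycin against Ceapin-A7 (Fosb lost, limma adjusted p = 0.0523), 1 for tunicamycin minus AA147, 3 for PBS.2 against PBS and 0 in the others. Over all genes tunicamycin against PBS.2 gave 1141 calls, 86 with the compared groups only, 430 with the Ddx3y covariate and 7381 with the other vehicle set, and tunicamycin against Ceapin-A7 gave 1746, or 613 with the compared groups only. The tunicamycin effect minus the AA147 effect gave 136, 60 with the Ddx3y covariate and 77 with the compared groups only, and the other vehicle set gave 6676 for Ceapin-A7 and 6016 for AA147. Median-ratio scaling left 3 and 6 members called for tunicamycin against PBS.2 and against Ceapin-A7.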
